A study of Mus musculus with 8 samples.

Results

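TRAV1 and TRAV2 open the mouse TCR α locus at its 5′ end, far from the TRAJ segments, and TRAV17, TRAV18 and TRAV19 stand near its 3′ end, close to the TRAJ segments. These 5 segments were taken by name from the 116 V segment names in the α-chain files, and held 2534 of 53249 α-chain clonotypes and 4087 of 80000 reads in 8 mice. The distal pair (TRAV1, TRAV2) had 448 clonotypes and 747 reads, and the proximal segments (TRAV17, TRAV18, TRAV19) had 2086 clonotypes and 3340 reads. A clonotype here is 1 CDR3 nucleotide sequence with its V and J names in 1 mouse, and the CDR3 is the loop encoded where V and J meet.

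Endogenous CD8+ T cells were sorted as Thy1.1-negative, CD8-positive cells from inguinal lymph nodes and spleen of female C57BL/6 mice, 6 to 8 weeks old when inoculated with 200000 B16F10 melanoma cells on day 0. In all 8 mice lymphocytes were depleted with cyclophosphamide (CTX) at 300 mg/kg on day 3, followed by 2000000 Thy1.1 Pmel-1 T cells (transgenic for a gp100-specific receptor) on day 5 and 10000 IU of human IL-2 daily for 3 days. The 3 mice of the CTX group received nothing further, while the 5 mice of the CTX_CD4 group also received 200 μg anti-CD4 antibody (clone GK1.5) on days 10, 17 and 24, and cells were collected on day 25. The mice differed in this antibody only, and neither group stands for an untreated mouse. TCR sequences alone do not show the CD8 or Thy1.1 status of the sorted cells. The transgenic receptor of the Pmel-1 cells was not searched for here, so the sort was not tested.

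Each α library held 10000 reads after down-sampling by the authors, in 5043 to 7695 clonotypes. The reads carry no molecular identifiers, so the Wilson 95% intervals and the floor of 3 reads (0.03% of a library) cover counting error only. In RNA from sorted cells, fewer cells with a segment and less TCR RNA per cell cannot be told apart.

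The TCR α-chain is assembled in the thymus by joining a TRAV to a TRAJ segment, and the same allele can rearrange again while both a more 5′ TRAV and a more 3′ TRAJ remain. The first joins are known to favour TRAV segments near the TRAJ array and TRAJ segments at its 5′ side, and later joins reach outward in both directions. TRAJ segments are numbered backwards along the chromosome, so a high number is 5′, near the TRAV array, and a low number is 3′, near the constant region. TRAV1 is also the V segment of mucosal-associated invariant T (MAIT) cells, which join it to TRAJ33.

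The germline ends of the 5 V segments are shown because they set the first residues of each CDR3. Each runs from the codon of the conserved cysteine to the last base before the recombination signal on the plus strand of chromosome 14 (GRCm38), in lower case as no base is emphasised.
TRAV1, chr14:52428863-52428876: tgtgctgtgaggga
TRAV2, chr14:52568036-52568051: tgcattgtgactgaca
TRAV17, chr14:53807102-53807115: tgtgcactggaggg
TRAV18, chr14:53831818-53831827: tgtacaggaa
TRAV19, chr14:53845815-53845827: tgcgcagcaggtg

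The J starts, from the first base after the recombination signal to the codon of the conserved phenylalanine or tryptophan, are shown for the TRAJ segments joined most by each end and for TRAJ33 of the MAIT join.
TRAJ57, chr14:54158505-54158538: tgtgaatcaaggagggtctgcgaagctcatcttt
TRAJ56, chr14:54159263-54159294: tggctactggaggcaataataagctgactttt
TRAJ49, chr14:54168686-54168713: gaacacgggttaccagaacttctatttt
TRAJ33, chr14:54185358-54185383: tggatagcaactatcagttgatctgg
TRAJ23, chr14:54196081-54196109: tgaattataaccaggggaagcttatcttt
TRAJ22, chr14:54197248-54197276: catcttctggcagctggcaactcatcttt

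The annotated segments, leader exon included, lie at chr14:52427928-52428876 (TRAV1), chr14:52567198-52568051 (TRAV2), chr14:53806639-53807115 (TRAV17), chr14:53831105-53831827 (TRAV18) and chr14:53845234-53845827 (TRAV19). TRAV1 starts 1727 kb upstream of TRAJ61, the first segment of the TRAJ array, and TRAV19 starts 310 kb upstream of it. Many mouse TRAV segments have near-identical copies from duplications of the middle of the locus, whereas these 5 have none. Over the last 250 bases of the V exon, the nearest other segment was 58.4% identical to TRAV1, 64.8% to TRAV2, 75.2% to TRAV17, 61.6% to TRAV18 and 69.6% to TRAV19. The residues encoded by each V end were kept in most of its clonotypes. After the cysteine came alanine and valine in 277 of 312 TRAV1 clonotypes, isoleucine and valine in 133 of 136 TRAV2 clonotypes, alanine and leucine in 582 of 597 TRAV17 clonotypes and a pair of alanines in 1416 of 1482 TRAV19 clonotypes. TRAV18 had 7 clonotypes in all, 4 of them with threonine and glycine there.

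Both distal segments joined TRAJ segments far from the TRAV array, and both well-represented proximal segments joined those near it, in every mouse. The mean TRAJ number of distal clonotypes was 23.1, 21.9 and 24.0 in CTX mice 1 to 3, and 22.5, 24.9, 24.3, 23.4 and 23.0 in CTX_CD4 mice 1 to 5. The mean TRAJ number of proximal clonotypes was 48.2, 47.6 and 46.6 in the CTX mice and 47.3, 45.9, 47.3, 46.1 and 47.0 in the CTX_CD4 mice. No distal mean came near a proximal one, and the mean over whole α libraries, 29.3 to 31.5, lay between them in all mice. The difference, distal minus proximal, was -23.6 ± 1.57 TRAJ numbers (SD, n = 8 mice), and was below 0 in 8 of 8 mice (exact two-sided sign-flip permutation test, p = 0.0078, the smallest that 256 sign flips allow; adjusted p = 0.0234 over 3 end-to-end measures). Placed on the chromosome, distal joins lay 22.7 to 27.7 kb further 3′ than proximal joins, depending on the mouse.

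**Figure D1:**
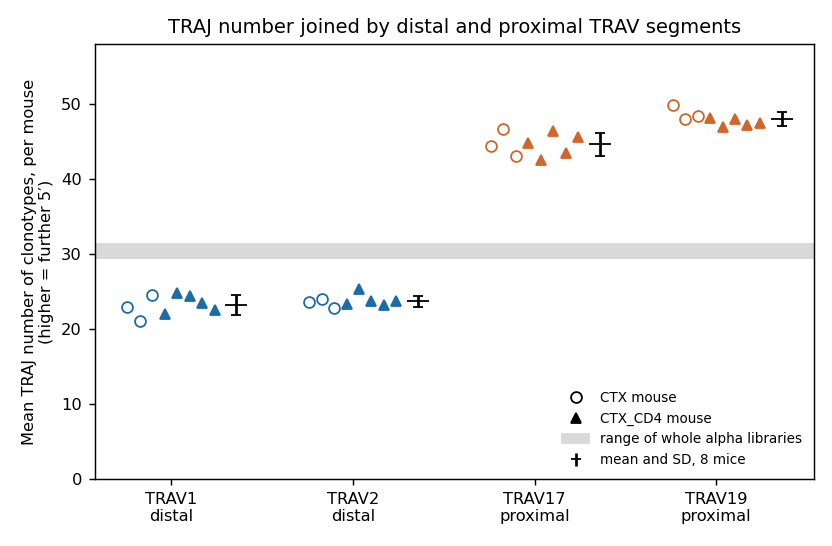
Mean TRAJ number of the clonotypes of each segment (y axis; higher is further 5′) in each mouse, with the mean and SD over 8 mice beside the points and the range of whole α libraries as a grey band. TRAV1 and TRAV2 lie below the band at 21.2 to 25.3 and TRAV17 and TRAV19 above it at 42.5 to 49.8, with CTX and CTX_CD4 mice intermixed; TRAV18, with 7 clonotypes, is not drawn.

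Within the distal pair the TRAJ numbers did not separate. TRAV1, the outermost segment, averaged 23.2 ± 1.31 and TRAV2, 139 kb further in, averaged 23.7 ± 0.730 (SD, n = 8 mice), and TRAV1 was the lower in 5 of 8 mice (difference -0.514 ± 1.39; exact two-sided sign-flip permutation test, p = 0.344). Within the proximal segments they did. TRAV17 averaged 44.6 ± 1.55 and TRAV19, 38.6 kb closer to the TRAJ array, averaged 47.99 ± 0.911, and TRAV17 was the lower in 8 of 8 mice (difference -3.35 ± 1.64; exact two-sided sign-flip permutation test, p = 0.0078, adjusted p = 0.0208 over 8 segment comparisons chosen after the values were seen).

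The few TRAV18 clonotypes came from 3 mice and joined TRAJ57, TRAJ45 and TRAJ34 in CTX mouse 2, TRAJ48, TRAJ43 and TRAJ40 in CTX_CD4 mouse 2 and TRAJ23 in CTX_CD4 mouse 3. Of these 7, 5 had TRAJ35 or a higher number, compared with 486 of 597 for TRAV17, 1315 of 1481 for TRAV19, 24 of 312 for TRAV1 and 11 of 136 for TRAV2. TRAV18 was too rare for a test. 1 further TRAV19 clonotype was joined to TRDJ1, a J segment of the δ locus that lies inside the α locus, and was left out of all TRAJ numbers.

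The middle of the TRAJ array divided the ends in the same way. The share upstream of it restates the same TRAJ positions as the mean, so its test is not a separate one. Of distal clonotypes, 17.8% ± 4.02 joined a TRAJ segment upstream of the midpoint between TRAJ61 and TRAJ1, and of proximal clonotypes, 92.2% ± 2.50 did (SD, n = 8 mice; lower for distal in 8 of 8; exact two-sided sign-flip permutation test, p = 0.0078, adjusted p = 0.0156 over 4 measures added after the values were seen). The share per mouse was 10.0% to 22.4% for the distal pair and 89.1% to 94.4% for the proximal segments. These ranges do not overlap.

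Along the array, the ends exchanged places in steps. In the 5′-most stretch, TRAJ45 to TRAJ58, lay 5 of 448 distal and 1445 of 2085 proximal clonotypes (1.12% and 69.3%). TRAJ35 to TRAJ44 took 30 distal (6.70%) and 361 proximal (17.3%) clonotypes. TRAJ21 to TRAJ34 took 275 distal (61.4%) and 234 proximal (11.2%) clonotypes. The 3′-most stretch, TRAJ2 to TRAJ18, took 138 distal (30.8%) and 45 proximal (2.16%) clonotypes. Distal joins thus centred on the middle of the array and on its 3′ side, whereas proximal joins crowded its 5′ edge. The exceptions were few: the 5 distal clonotypes with TRAJ45 or above came from 4 mice and 4 of them used TRAV1, while the 45 proximal clonotypes with TRAJ18 or below came from all 8 mice and 21 of them used TRAV17.

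**Figure D2:**
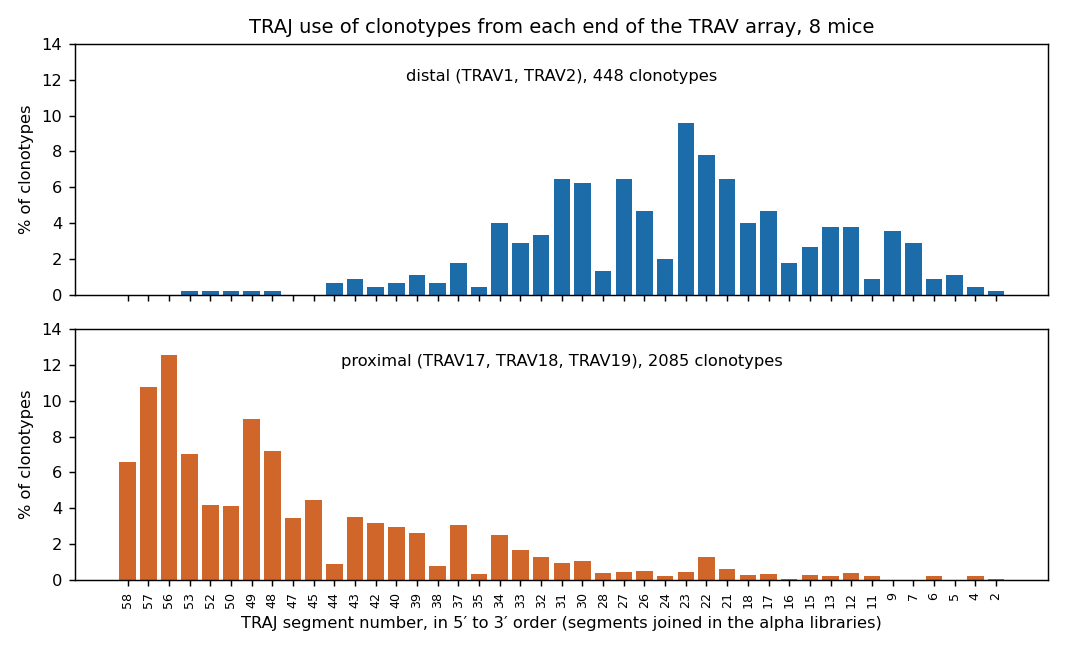
Share of distal (upper) and proximal (lower) clonotypes joined to each TRAJ segment (y axis, % of the clonotypes of that end, 8 mice pooled), with TRAJ segments in 5′ to 3′ order on the x axis. The proximal bars peak at TRAJ56 (12.6%) and fall toward the 3′ side, and the distal bars peak at TRAJ23 (9.60%) and are at or near 0 from TRAJ45 upward.

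Clonotypes per TRAJ segment were compared between the ends with edgeR's quasi-likelihood test, with the mouse as a block. The numbers compared are shares of each end's own clonotypes, so a rise at some TRAJ segments entails a fall at others. Of 36 TRAJ segments tested, 16 took a larger share of distal clonotypes (44.4%) and 14 a larger share of proximal clonotypes (38.9%) at a Benjamini-Hochberg adjusted p under 0.05. All 14 of the latter were TRAJ39 or above, and all 16 of the former were TRAJ32 or below. The 6 that passed in neither direction lay between TRAJ28 and TRAJ44, where both ends joined, and 7 of the 43 TRAJ names had too few clonotypes for the test. DESeq2 with its own size factors called 6 segments in place of the 16. With TMM scaling in edgeR, TRAJ34, TRAJ37 and TRAJ44 also passed as higher in the proximal end, and TRAJ15, TRAJ24 and TRAJ32 no longer passed.

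TRAJ56, TRAJ57 and TRAJ49 were the 3 segments most joined by the proximal end, with 262, 225 and 187 proximal clonotypes. The distal end had 0, 0 and 1 clonotypes with them. Set against a floor of 3 clonotypes over the distal end, the proximal share was at least 18.8-fold higher for TRAJ56, at least 16.1-fold higher for TRAJ57 and at least 9.81-fold higher for TRAJ58 (137 proximal, 0 distal clonotypes). TRAJ45 was joined by 93 proximal and 0 distal clonotypes, at least 6.66-fold higher. TRAJ48 and TRAJ53 had 150 and 146 proximal clonotypes and 1 distal clonotype each.

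At the distal end TRAJ23 and TRAJ22 led, followed by TRAJ21, TRAJ27 and TRAJ31 at 29 clonotypes each. TRAJ23 was joined by 43 distal and 9 proximal clonotypes, or 9.60% and 0.432% of each end, and the distal share was the higher in 8 of 8 mice (log2 fold change 4.23, SE 0.42; edgeR adjusted p = 5.34e-19). TRAJ22 was the most used of these by the proximal end, at 26 clonotypes, against 35 distal ones (log2 fold change 2.59, SE 0.36; edgeR adjusted p = 4.43e-11). TRAJ30 and TRAJ17 were joined by 28 and 21 distal and by 22 and 7 proximal clonotypes. TRAJ9, close to the 3′ edge of the array, was joined by 16 distal and 0 proximal clonotypes. Against a floor of 3 proximal clonotypes, pooled over mice, the distal share was 24.8-fold higher.

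The position of a TRAV segment and its mean TRAJ number were then set side by side for the 91 TRAV segments with 100 or more clonotypes. TRAV17 and TRAV19 ranked 89 and 90 from the lowest mean TRAJ number, and only TRAV21/DV12, the next of these 91 toward the TRAJ array, ranked above them, at 48.01. TRAV1 and TRAV2 ranked 11 and 15, so the outermost segments were low but not the lowest. The lowest mean, 21.9, belonged to TRAV3N-3 (named here after its value was seen), which lies 871 kb upstream of TRAJ61 in the middle of the locus. Across the 91 segments, mean TRAJ number rose toward the TRAJ array with a Spearman rho of 0.513, and of 0.459 over 87 segments without the members. These points share libraries, and names in the duplicated middle of the locus can be exchanged between near-identical copies, so the rho is a description only.

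**Figure D3:**
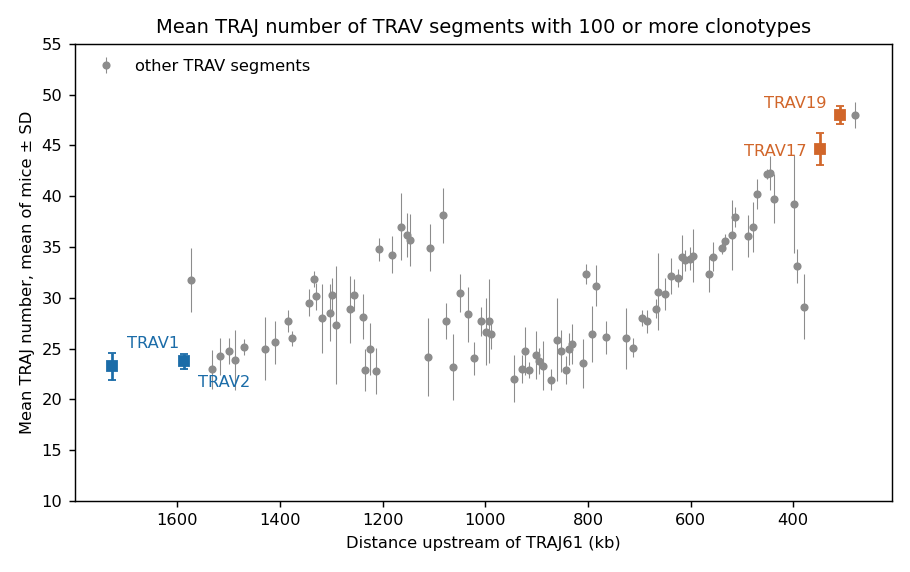
Mean TRAJ number (y axis, mean and SD over mice) of the 91 TRAV segments with 100 or more clonotypes against their distance upstream of TRAJ61 (x axis, kb, nearest on the right). TRAV17 and TRAV19 lie at the top right, and TRAV1 and TRAV2 at the far left lie level with segments in the middle of the locus.

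Neighbours of the distal pair had similar means. TRAV5-1, TRAV6-1 and TRAV7-1 averaged 22.8, 24.1 and 24.8 over their clonotypes. TRAV3-1, between TRAV2 and TRAV5-1, averaged 31.7 and ranked 59. TRAV3-1 is 97.6% identical over 250 bases to TRAV3-4, so reads of either may carry the other's name, which was not tested. The nearest segments to TRAV5-1, TRAV6-1 and TRAV7-1 were 82.4%, 95.6% and 91.2% identical. Neighbours of the proximal segments were mixed. TRAV20, between TRAV19 and TRAV21/DV12, averaged 45.9 over 28 clonotypes. On the other side of TRAV17, TRAV3-4 averaged 29.1 (rank 50) and TRAV14-3 averaged 33.0 (rank 65), against 44.6 for TRAV17. They start 378 and 392 kb upstream of TRAJ61, next to TRAV17 at 348 kb, and both were named here after their values were seen. The next segment outward with a value, TRAV13-4-DV7 at 398 kb, averaged 40.0 (rank 85), and was also named after its value was seen.

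CDR3 length did not separate the ends. The mean length of distal minus proximal clonotypes was 0.0844 ± 0.278 residues (SD, n = 8 mice), above 0 in 5 of 8 mice (exact two-sided sign-flip permutation test, p = 0.414). The difference lay within the ends instead. TRAV2 loops averaged 14.6 ± 0.405 residues and TRAV1 loops 13.7 ± 0.297 (SD, n = 8 mice), and TRAV1 was the shorter in 8 of 8 mice (exact two-sided sign-flip permutation test, p = 0.0078, adjusted p = 0.0208 over the same 8 comparisons). TRAV17 loops averaged 14.2 ± 0.167 and TRAV19 loops 13.8 ± 0.0929, and TRAV17 was the longer in 8 of 8 mice (exact two-sided sign-flip permutation test, p = 0.0078, adjusted p = 0.0208). The germline V ends shown above differ in the same direction, with 16 bases for TRAV2, 14 for TRAV1 and TRAV17 and 13 for TRAV19, and the part of V end length in the loops was not tested. Loops of 15 residues made up 32.4% of TRAV2 and 21.8% of TRAV1 clonotypes.

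**Figure D4:**
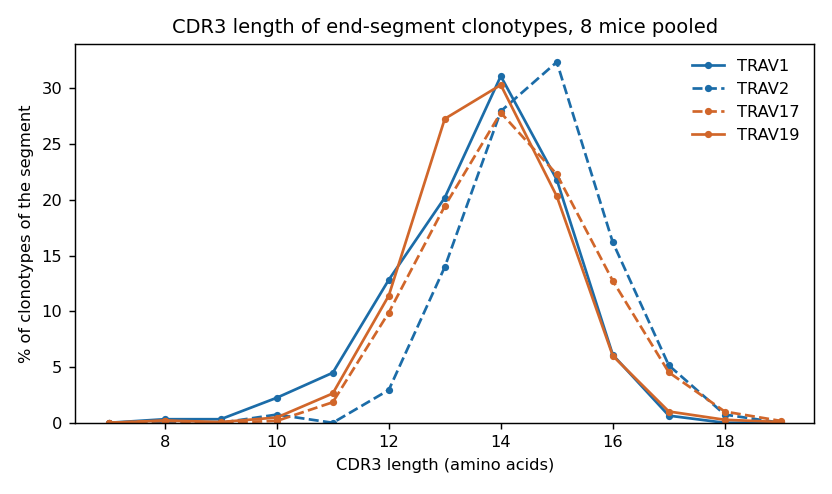
CDR3 length in amino acids (x axis) of TRAV1, TRAV2, TRAV17 and TRAV19 clonotypes (y axis, % of the clonotypes of each segment, 8 mice pooled). TRAV2 peaks at 15 residues (32.4%) and the other segments at 14 (31.1% for TRAV1, 27.8% for TRAV17 and 30.3% for TRAV19).

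Inserted nucleotides, counted between the deposited end of V and start of J, passed the test between the ends when counted this way and not when counted against the germline. The mean was 2.74, 2.10 and 1.90 per distal clonotype in the CTX mice and 1.96, 2.09, 1.88, 1.66 and 1.84 in the CTX_CD4 mice, against 1.62 to 1.85 per proximal clonotype. Distal minus proximal was 0.260 ± 0.368 (SD, n = 8 mice), above 0 in 7 of 8 mice (exact two-sided sign-flip permutation test, p = 0.0156, adjusted p = 0.0234), and CTX mouse 1 alone reached 1.12. Without CTX mouse 1 the difference was 0.137, and without clonotypes of 1 read it was 0.0601 (p = 0.922, same exact test). Counted instead as bases that match neither germline end, the difference was 0.254, above 0 in 6 of 8 mice, and did not pass (exact two-sided sign-flip permutation test, p = 0.0781). The share of clonotypes with no unmatched base was 17.7% ± 2.83 at the distal and 15.8% ± 1.99 at the proximal end (p = 0.156, same exact test).

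TRAV19 was the most used in every mouse, with 301, 312 and 252 reads in the CTX mice and 307, 298, 301, 367 and 407 in the CTX_CD4 mice. TRAV17 had 100, 122 and 106 reads in the CTX mice and 86, 114, 79, 115 and 65 in the CTX_CD4 mice. TRAV1 had 45, 113 and 72 reads in the CTX mice and 124, 86, 44, 64 and 37 in the CTX_CD4 mice. The groups overlapped for each of these segments, and TRAV1 had the widest range relative to its level, from 0.37% of reads (Wilson 95% interval 0.269% to 0.510%) to 1.24% (1.04% to 1.48%). TRAV2 had 14, 17 and 24 reads in the CTX mice and 25, 24, 13, 26 and 19 in the CTX_CD4 mice. TRAV18 had 3 reads in CTX mouse 2, 4 in CTX_CD4 mouse 2, 1 in CTX_CD4 mouse 3 and 0 in the other 5 mice, where 0 of 10000 reads allows a share of up to 0.03%. TRAV2 also overlapped between groups, and TRAV18 was at or near the floor in all mice.

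Anti-CD4 did not move the shares of the 4 testable segments past the threshold. Among the 103 V segments tested with edgeR, 0 passed an adjusted p under 0.05 (0%) and 6 an unadjusted p under 0.05 (5.83%), and DESeq2 gave the same counts. The log2 fold change of reads, CTX_CD4 over CTX, was -0.11 for TRAV1 (SE 0.34, adjusted p = 0.931), 0.23 for TRAV2 (SE 0.35, adjusted p = 0.904), -0.24 for TRAV17 (SE 0.27, adjusted p = 0.871) and 0.25 for TRAV19 (SE 0.20, adjusted p = 0.743). The median over all segments tested was 0.035.

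The end-to-end pattern also did not differ detectably between the groups. The gap in mean TRAJ number was -24.5 ± 1.64 in the CTX mice (SD, n = 3) and -23.1 ± 1.45 in the CTX_CD4 mice (SD, n = 5), a difference of 1.37 (exact two-sided Mann–Whitney permutation test, p = 0.393). The difference was 2.87 without clonotypes of 1 read and 3.37 when weighted by reads, neither past the threshold. It was 0.768 without CTX mouse 2, 2.31 without CTX mouse 3 and 0.831 without CTX_CD4 mouse 2. With a mouse left out, the exact Mann–Whitney test could not pass. Its smallest p is 0.0952 for 2 mice against 5 and 0.0571 for 3 against 4. Without CTX mouse 3 the p of that test was at this limit, 0.0952. The distal share of reads was 0.950% ± 0.355 and 0.924% ± 0.390 and the proximal share 3.99% ± 0.396 and 4.29% ± 0.459 in the CTX and CTX_CD4 mice. Mean CDR3 length was 13.93 and 13.97 residues at the distal end and 13.94 and 13.82 at the proximal end. Over the 9 group comparisons made this way, raw p ranged from 0.143 to 0.786 and adjusted p from 0.5625 to 0.786, and 0.0357 is the smallest p that 3 mice against 5 allow. A p above the threshold does not show that the groups were alike.

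Clonotypes of 10 or more reads, called expanded here, numbered 16 among the members. By mouse there were 0, 2 and 1 in the CTX group and 3, 2, 2, 2 and 4 in the CTX_CD4 group, means of 1 ± 1 and 2.6 ± 0.894 (SD, n = 3 and 5; exact two-sided Mann–Whitney permutation test, p = 0.143, adjusted p = 0.5625). They took 0%, 13.8% and 2.42% of member reads in the CTX mice and 18.8%, 7.03%, 20.5%, 7.69% and 35.04% in the CTX_CD4 mice. CTX mouse 2 overlapped the CTX_CD4 range for both measures. With 5 or more reads as the limit, the groups differed by 7.2 clonotypes per mouse (exact two-sided Mann–Whitney permutation test, p = 0.0357, not adjusted). Whole-library counts at this limit are not given here, so that difference cannot be set against one in whole libraries. Whole α libraries held 12 to 15 expanded clonotypes in the CTX mice and 21 to 102 in the CTX_CD4 mice, and the members were 5.32% of all 301 expanded α clonotypes and 4.76% of all α clonotypes.

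**Figure D5:**
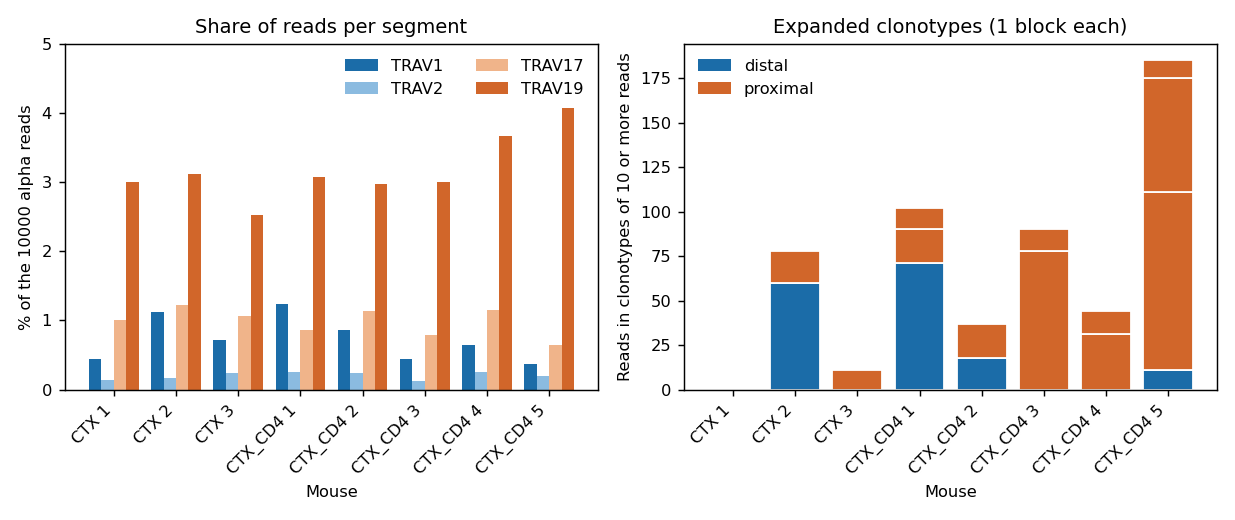
Left, share of the 10000 α reads of each mouse (y axis, %) held by TRAV1, TRAV2, TRAV17 and TRAV19; right, reads in member clonotypes of 10 or more reads, with 1 block per clonotype and the distal and proximal ends in blue and orange. TRAV19 holds the largest share in every mouse (2.52% to 4.07%), and CTX_CD4 mouse 5 has the tallest stack, led by a proximal clonotype of 100 reads.

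Most expanded clonotypes joined TRAJ segments in the range common at their end. The 4 distal ones, all TRAV1, joined TRAJ4 to TRAJ30, and of the 12 proximal ones, 11 joined TRAJ35 or above and 1 joined TRAJ23. By nucleotide sequence, 12 of the 16 were in 1 mouse only. The CDR3 sequences of the 10 with 18 or more reads are shown because they identify the clones with the most reads, with capitals for bases matched by neither germline end.
TRAV1-TRAJ27, 13 residues: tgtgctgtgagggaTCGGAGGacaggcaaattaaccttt
TRAV1-TRAJ4, 13 residues: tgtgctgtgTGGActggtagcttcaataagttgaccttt
TRAV1-TRAJ22, 14 residues: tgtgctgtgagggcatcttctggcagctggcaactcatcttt
TRAV19-TRAJ58, 13 residues: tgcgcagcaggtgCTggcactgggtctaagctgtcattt
TRAV19-TRAJ53, 15 residues: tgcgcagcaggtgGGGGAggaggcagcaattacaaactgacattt
TRAV19-TRAJ57, 16 residues: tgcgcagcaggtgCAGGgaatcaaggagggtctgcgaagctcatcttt
TRAV19-TRAJ56, 12 residues: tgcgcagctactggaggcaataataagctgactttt
TRAV19-TRAJ49, 12 residues: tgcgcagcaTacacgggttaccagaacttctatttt
TRAV19-TRAJ23, 14 residues: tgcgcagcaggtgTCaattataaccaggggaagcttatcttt
TRAV17-TRAJ53, 15 residues: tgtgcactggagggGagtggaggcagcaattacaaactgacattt

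The most abundant was the TRAV19-TRAJ58 clone, with 100 reads or 1.00% of the library of CTX_CD4 mouse 5 (Wilson 95% interval 0.823% to 1.21%), and the TRAV19-TRAJ57 clone added 64 reads in the same mouse. The TRAV19-TRAJ53 clone had 78 reads in CTX_CD4 mouse 3 and the 12-residue TRAV19-TRAJ56 clone had 31 in CTX_CD4 mouse 4. The TRAV19-TRAJ49 clone had 19 in CTX_CD4 mouse 1. Each of these clones was in 1 mouse by nucleotide sequence. At the distal end, the TRAV1-TRAJ27 clone had 71 reads in CTX_CD4 mouse 1 (0.710%, interval 0.563% to 0.895%) and the same nucleotide sequence, with 7 unmatched bases, had 4 in CTX_CD4 mouse 2. Whether those 4 reads were carried over between libraries was not tested. In the CTX group, the TRAV1-TRAJ4 clone had 60 reads in CTX mouse 2. The TRAV1-TRAJ27 and TRAV1-TRAJ4 clones held 57.3% and 53.1% of the TRAV1 reads of their mice, the pair with the most TRAV1 reads. The TRAV1-TRAJ22 clone, with no unmatched base, had 18 reads in CTX_CD4 mouse 2, 4 in CTX_CD4 mouse 4 and 1 in CTX_CD4 mouse 5.

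TRAV2 and TRAV18 had no expanded clonotype. Their most abundant were a TRAV2-TRAJ7 clonotype with 8 reads in CTX_CD4 mouse 4 and a TRAV18-TRAJ40 clonotype with 2 reads in CTX_CD4 mouse 2. TRAV17 had 1, joined to TRAJ53, with 19 reads in CTX_CD4 mouse 2. The TRAV19-TRAJ23 clone, the only expanded proximal clonotype below TRAJ35, had 18 reads in CTX mouse 2. CTX_CD4 mice 1 and 2, which have the TRAV1-TRAJ27 clone in common, shared 27 member clonotypes by nucleotide sequence, against 10 to 28 (median 19) in the other 27 pairs of mice.

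Clonotypes of 1 read made up 81.4% ± 4.92 of distal and 72.7% ± 5.06 of proximal clonotypes (SD, n = 8 mice), and the distal share was the higher in 8 of 8 mice (exact two-sided sign-flip permutation test, p = 0.0078, adjusted p = 0.0156 over the same 4 measures). TRAV19 had the lowest share over all its clonotypes, 70.0%, and TRAV2 the highest of the 4 common segments, 90.4%. Between them, proximal TRAV17 at 81.2% was above distal TRAV1 at 77.6%, so the order of the ends did not hold for every pair of segments.

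Of 1825 member clonotypes counted by amino acids, 14 were in 6 or more mice, of which 13 were TRAV19, 1 was TRAV17 and 0 were distal. TRAV1 clonotypes reached at most 4 mice and TRAV2 clonotypes at most 2. In whole α libraries 138 of 44635 (0.309%) were in 6 or more mice, against 0.767% of the members. TRAV19 had 13 of 926 (1.40%) and TRAV17 had 1 of 492 (0.203%). TRAV1 had 0 of 273 and TRAV2 had 0 of 127, too few clonotypes to be set below the whole-library share. TRAV19 had more clonotypes in each library than the other members, and the part of this in the counts was not tested.

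The most widely shared, a TRAV19-TRAJ56 loop of 14 residues, was in all 8 mice with 81 reads and 7 nucleotide forms. The 2 most abundant forms are shown because every base of both is found in a germline end, and the forms differ where TRAV19 ends and TRAJ56 starts. They had 34 reads in 8 mice and 29 reads in 7 mice, in this order.
TRAV19-TRAJ56, first form: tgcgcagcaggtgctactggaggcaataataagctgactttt
TRAV19-TRAJ56, second form: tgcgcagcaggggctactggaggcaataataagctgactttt

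Over all its forms this loop had 15, 11 and 17 reads in the CTX mice and 6, 8, 9, 9 and 6 in the CTX_CD4 mice, means of 14.3 ± 3.06 and 7.6 ± 1.52 (SD, n = 3 and 5). Every CTX mouse was above every CTX_CD4 mouse. It was picked for being shared and singled out after its values were seen, so no test is given; 1 of the 14 widely shared member clonotypes had this pattern, and 2 of 138 (1.45%) of such α clonotypes in the whole series. Of the other loops in 7 mice, all TRAV19, 1 joined TRAJ56 (23 reads), 1 joined TRAJ48 (21 reads) and the other two joined TRAJ57 (13 reads each), with overlapping groups. The only TRAV17 loop, with TRAJ49, had 8 reads in 6 mice.

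The MAIT join was rare. TRAV1-TRAJ33 gave 12 clonotypes and 20 reads over 8 mice, from 0 reads in CTX_CD4 mouse 5 to 6 in CTX_CD4 mouse 1. TRAJ33 took 3.85% of TRAV1 clonotypes and 3.17% of all α clonotypes. Loops of 12 residues, the length typical of MAIT cells, made up 5 of these clonotypes and 10 reads. The most frequent form had 2 reads in CTX mouse 2, 3 in CTX_CD4 mouse 1 and 1 in CTX_CD4 mouse 2, has no unmatched base and is shown for comparison with the TRAV1 and TRAJ33 ends above, beside a second form whose capital marks a base matched by neither end.
TRAV1-TRAJ33, first form: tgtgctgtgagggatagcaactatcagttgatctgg
TRAV1-TRAJ33, second form: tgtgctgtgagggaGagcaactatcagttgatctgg

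The second form, with 1 unmatched base, had 3 reads in CTX_CD4 mouse 1. Leaving out all TRAV1-TRAJ33 clonotypes moved the distal-proximal gap from -23.6 to -23.8 TRAJ numbers. The p stayed at the smallest that the sign flips allow, so it could not show a change. For comparison, TRAV11-TRAJ18, the join of invariant natural killer T cells, gave 31 clonotypes and 83 reads.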

How the data were processed

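The deposited values are counts of reads per clonotype: the authors amplified TCR chains by nested PCR, trimmed the reads, aligned them in MiXCR, used VDJtools to separate the chains and drew 10000 reads from every library. Versions of MiXCR and VDJtools and the segment library are not given in the sources used here. The submitters' notes name mm10, and coordinates were looked up by segment name in GENCODE vM21 (GRCm38, the same build). The 8 α-chain files, 1 per mouse, were used; β-chain files were not used here.

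TRAJ number, CDR3 length and inserted bases were averaged over clonotypes, unweighted, in each mouse (Python 3.11.15, pandas 2.3.3, scipy 1.17.1). Bases matching neither germline end were found by exact match from each end of the CDR3, so a mismatch within a germline stretch adds to them. Ends were compared within mice by exact two-sided sign-flip tests and groups by exact two-sided Mann–Whitney tests over the 56 splits, adjusted by Benjamini-Hochberg. V segments with 10 or more reads in 3 or more mice were tested in edgeR 4.0.16 (R 4.3.3, TMM, quasi-likelihood), with DESeq2 1.42.0 as an alternative. TRAJ segments with 10 or more member clonotypes were tested in edgeR with the mouse as a block and each end's total clonotypes in place of TMM, a change made after TMM was seen to turn the direction of 3 segments. The steps were tested on simulated data.

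Named were the 5 members, up to 15 TRAJ segments past the threshold, the 3 most joined by each end (ties kept), TRAJ33 with TRAV1, the neighbouring segments, the most abundant clonotype of each member, up to 15 clonotypes of 10 or more reads and up to 10 found in 6 or more mice. Members, lists and tests were chosen with earlier results of these data known. Mice are separate animals, so p-values of the exact tests measure the spread between animals. Those of edgeR also rest on variance estimates pooled across segments, so they can be far smaller than the exact tests allow. Alternatives covered depth, clonotypes of 1 read, weighting, CDR3 ends, the MAIT join, each segment and each mouse left out, tools, filters and the pairing of mice.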

Additional observations from a re-analysis of the deposited data

How the results depend on the processing

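The distal-proximal gap stayed between -25.9 and -21.2 under 14 alternatives (p = 0.0078 in each, exact sign-flip permutation test). All were in TRAJ numbers except the gap in kb, -25.5, and the -25.9 was a gap of medians. With each mouse left out, the gap in mean TRAJ number lay between -24.0 and -23.3 (p = 0.0156, same exact test, the smallest 7 mice allow). The V segment count stayed at 0. Removing clonotypes of 1 read turned the CDR3 length gap to -0.258 and the distal share difference, CTX_CD4 minus CTX, to 0.0173, and lowered the gap in inserted bases to 0.0601. Weighting by reads turned the length gap to -0.131 and the group difference in proximal TRAJ number to 0.293, and gave 0.303 for inserted bases, no longer past the threshold (p = 0.281, exact). Share of clonotypes in place of reads turned the distal share difference to 0.0294. With 5 or more reads, the difference in expanded clonotypes was 7.2 and passed unadjusted, with no whole-library count at that limit beside it. Counting germline-unmatched bases, chosen after seeing the data, gave 0.254. The cause of these changes was not tested.

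Leave-one-out ranges that crossed 0 were -0.206 to 0.149 for the distal share (above 0 without CTX mouse 2 or CTX_CD4 mouse 3 or 5), -0.126 to 0.135 for distal CDR3 length (below 0 without CTX mouse 1 or CTX_CD4 mouse 3, 4 or 5) and -0.39 to 0.28 for the TRAV1 log2 fold change (above 0 without CTX mouse 2 or CTX_CD4 mouse 3 or 5, at 0.28, 0.02 and 0.06). The TRAV1 fold change did not pass the threshold in any of these fits. For the distal share and distal CDR3 length, the exact Mann–Whitney test could not pass with a mouse left out. Its smallest p is then 0.0952 for 2 mice against 5 and 0.0571 for 3 against 4. The replicate block, pairing mice 1 to 3 of the groups by number, turned the distal share to 0.103, the proximal share to -0.02, distal CDR3 length to -0.0716 and the TRAV1 log2 fold change to 0.11. Deviations of same-numbered mice from their group means correlated at -0.0995, 0.0392 and -0.0578 over 103 V segments, so the numbers were not taken to pair the mice.

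For TRAJ use, DESeq2 with its own size factors called 6 segments higher in the distal end in place of 16. With TMM, edgeR called 13 segments higher in the distal and 17 in the proximal end. TMM turned 3 segments, 1 of them called with totals (TRAJ32), which no longer passed. Another, TRAJ34, passed as proximal (log2 fold change -0.93, edgeR adjusted p = 0.0177), as did TRAJ37 and TRAJ44. Each end's total was put in place of TMM after the turned segments were seen. Also chosen after seeing the data, leaving out of CTX_CD4 mouse 2 the 9 clonotypes (14 reads) it shares with CTX_CD4 mouse 1 alone, and keeping CDR3 from C to F or W only, changed no call. At 10000 reads a library, the 32 to 76 distal clonotypes of each mouse limit the group differences that can be seen.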
